A study of Drosophila melanogaster with 3 samples.

Results

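The T-box genes of Drosophila melanogaster encode transcription factors that share a DNA-binding domain, the T-box. The members described here were bi, H15, mid, Doc1, Doc2, Doc3, org-1 and byn, 8 of the 13922 protein-coding genes on the 6 arms used here. Their open chromatin was read from 1 ATAC-seq peak list, in which a transposase marks accessible DNA. The tissue was abdominal epidermis of wild-type pupae at 38 to 45 h after puparium formation, with 3 replicates of 50 pupae each, all in 1 group. A peak was counted for a member when its summit lay inside the annotated span of the gene, or when the closest end of a protein-coding gene was an end of that gene. The sequence that meets this rule is called the territory of the gene. By this rule the members held 112 of the 34718 peaks, or 0.323%.

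T-box factors bind short DNA sites and activate or repress genes that set cell identity in many tissues. In flies bi, also called optomotor-blind, acts downstream of the BMP ligand Dpp in the wing and in the pattern and pigmentation of the adult abdomen. H15 and mid are a pair of related neighbours known for ventral fate in legs, for segment pattern in the embryo and for the heart. Doc1, Doc2 and Doc3 are a cluster of related genes known from dorsal embryonic ectoderm, the amnioserosa and the heart. The gene org-1 is known from visceral and alary muscle, and byn is the fly Brachyury gene, known from the hindgut.

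The cells are named epidermal in the labels. Of 10 epidermal marker genes, 9 had a summit within 500 bp of an end of the gene, against 65.6% of all protein-coding genes, and 8 of 8 muscle, 5 of 8 neuronal, 3 of 5 fat body, 4 of 4 hemocyte and 1 of 3 oenocyte markers had one. Of 7 hindgut and heart genes, which include byn itself, all 7 had one. In these counts, and in those over all genes, a summit near an end was counted whichever gene's territory held it. The hemocyte marker Hml, for example, had no summit in its own territory. Open chromatin at a gene end is not expression, and the part of other cell types in the member peaks was not tested. In a bulk tissue, a site open in few cells and a site weakly open in many cannot be told apart, and the list holds no dorsal or ventral position, so the dorsoventral role of these genes could not be checked. All values describe the 3 replicates merged, so none has a replicate error and no test between samples was possible. The fold enrichment of a peak is the authors' value, a linear ratio of reads at the summit to the local background. The 95% Poisson intervals given with it come from the recovered number of overlapping reads at the summit and cover counting error only. A gene end may be a transcription start or a 3' end, since the annotation used here has no strand.

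All 8 T-box genes had a summit within 500 bp of an end of the gene, beside 65.6% of protein-coding genes. A gene-end peak of fold enrichment 3 or more was found at 7 of the 8 members, beside 10.7% of protein-coding genes, and bi was the exception. The members' territories added up to 285 kb and held 99 distal summits, meaning summits over 500 bp from an end of any annotated gene. That is 3.48 distal summits per 10 kb, beside 1.83 over the territories of all protein-coding genes and 1.94 over the 1393 genes with the longest territories (25.6 kb or more). Peaks covered 18.7% of the member territories, beside 11.6% of the 6 arms. Of the 112 member peaks, 14 (12.5%) had a fold enrichment of 3 or more, beside 6.21% of all peaks.

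The peaks were unevenly shared among the members. The genes bi, mid and H15 had 37, 26 and 23 summits, together 86 of 112 (76.8%), in 78.5% of the combined territory. Only these 3 members reached 20 or more summits, a count that 2.34% of protein-coding genes reached. The counts depend on the rule: when non-coding genes also competed for summits, bi had 32, mid 10 and H15 10. Among the 17359 peaks of highest −log10 q, bi had 19, H15 15 and mid 14. That cut keeps 50.0% of all peaks by construction, so lower counts there follow from the cut. Doc2 had 9 summits, Doc1 8, byn 4, Doc3 3 and org-1 2, and the median protein-coding gene had 1. By number of summits bi ranked 67th of all protein-coding genes, mid 158th and H15 224th, while org-1 ranked 4023rd. In all ranks given here, tied genes or peaks share the best rank of the tie. These ranks do not allow for length, and the median territory over all protein-coding genes was 4.62 kb. By distal summits per 10 kb mid ranked 857th, H15 1939th, bi 2381st and org-1 5198th. Density per length gave another order. Doc3 had 7.40 summits per 10 kb in a territory of 4055 bp, followed by Doc1 with 5.02, mid with 4.85, Doc2 with 4.72, H15 with 4.25, byn with 3.58, bi with 3.19 and org-1 with 1.83, beside 2.59 over the whole list. So bi combined the most summits with the longest territory, 116 kb, and only org-1 lay below the density of the list.

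**Figure D1:**
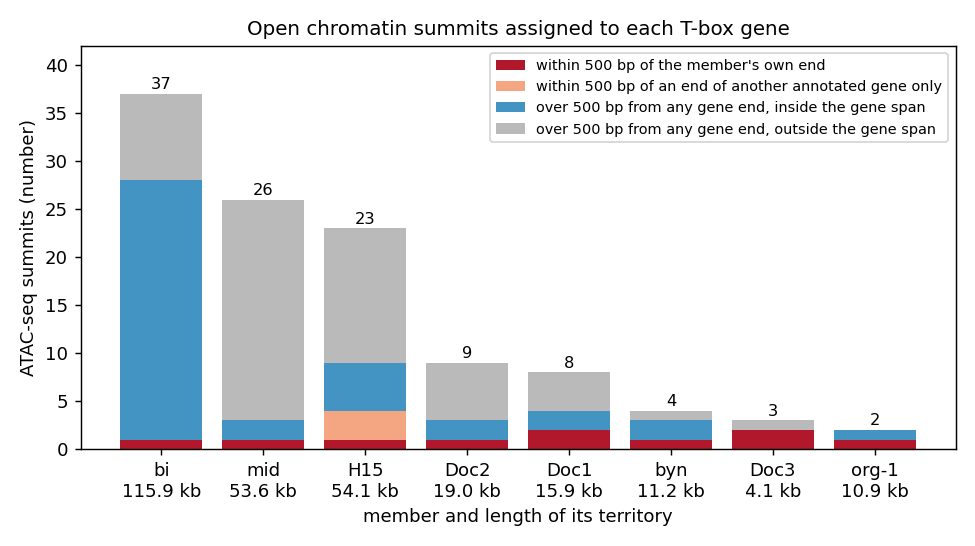
Number of summits assigned to each T-box gene, with the length of its territory under its name; colours divide summits by position. The bars run from 37 summits at bi to 2 at org-1, and most summits of bi lie inside the gene while most of mid and H15 lie outside it.

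**Figure D2:**
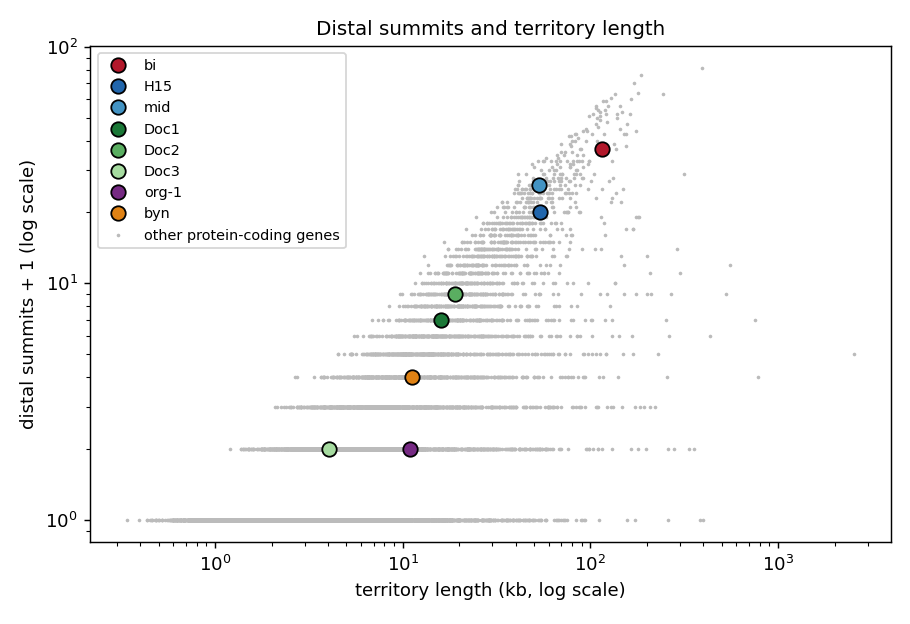
Distal summits plus 1 against territory length, both on log scales; each point is a protein-coding gene and the large points are the members. Among the members bi is highest with 36 distal summits in 116 kb and org-1 and Doc3 are lowest with 1 each.

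At bi, which encodes a Tbx2-type factor, the annotated span is chrX:4412856-4485647 in dm6, a length of 72.8 kb. Of its 37 summits, 27 lay inside the span, 8 beyond the lower-coordinate end and 2 beyond the higher-coordinate end. The peak at the lower end (chrX:4412629-4413544, summit 43 bp outside) had 147 reads over a background of 57.2 and a fold enrichment of 2.54 (2.15 to 2.99). The highest peak of the locus lay 1296 bp from the same end (chrX:4411306-4411940), with 215 reads and a fold enrichment of 3.71 (3.23 to 4.24). These intervals do not overlap. The second peak was picked as the highest of the 37 summits and the intervals cover counting error only, so the difference was not tested. The higher end of the gene had no summit within 500 bp.

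Inside bi the summits fell into stretches, divided here where neighbours lay over 3 kb apart. One stretch held 5 summits at 11.5 to 17.2 kb from the lower end, with fold enrichments from 1.55 to 3.31, and included the second and the third highest peaks of the locus, at 3.31 (chrX:4424815-4425679) and 3.25 (chrX:4426630-4427285). The next held 7 summits at 22.4 to 29.6 kb, from 1.74 to 2.65. The broadest member peak followed at 36.1 kb, close to the middle of the gene (chrX:4448523-4450590). It was 2068 bp wide, 34th in width in the whole list, with a fold enrichment of 2.89. Beyond it a summit at 39.1 kb had a fold enrichment of 1.49, and a pair at 49.3 and 50.0 kb had 2.75 and 1.76. Then 4 summits at 53.1 to 55.9 kb had fold enrichments of 1.83 to 2.12. A single summit at 59.4 kb had 1.82, and a pair at 62.9 and 64.2 kb reached 2.55 and 2.41. No peak was called in the next 18.7 kb (chrX:4477732-4496431), which includes the higher end of the gene. All 37 summits also lay inside the span of the long non-coding gene lncRNA:CR32773, so part of the assignment to bi rests on its being the nearest protein-coding gene.

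**Figure D3:**
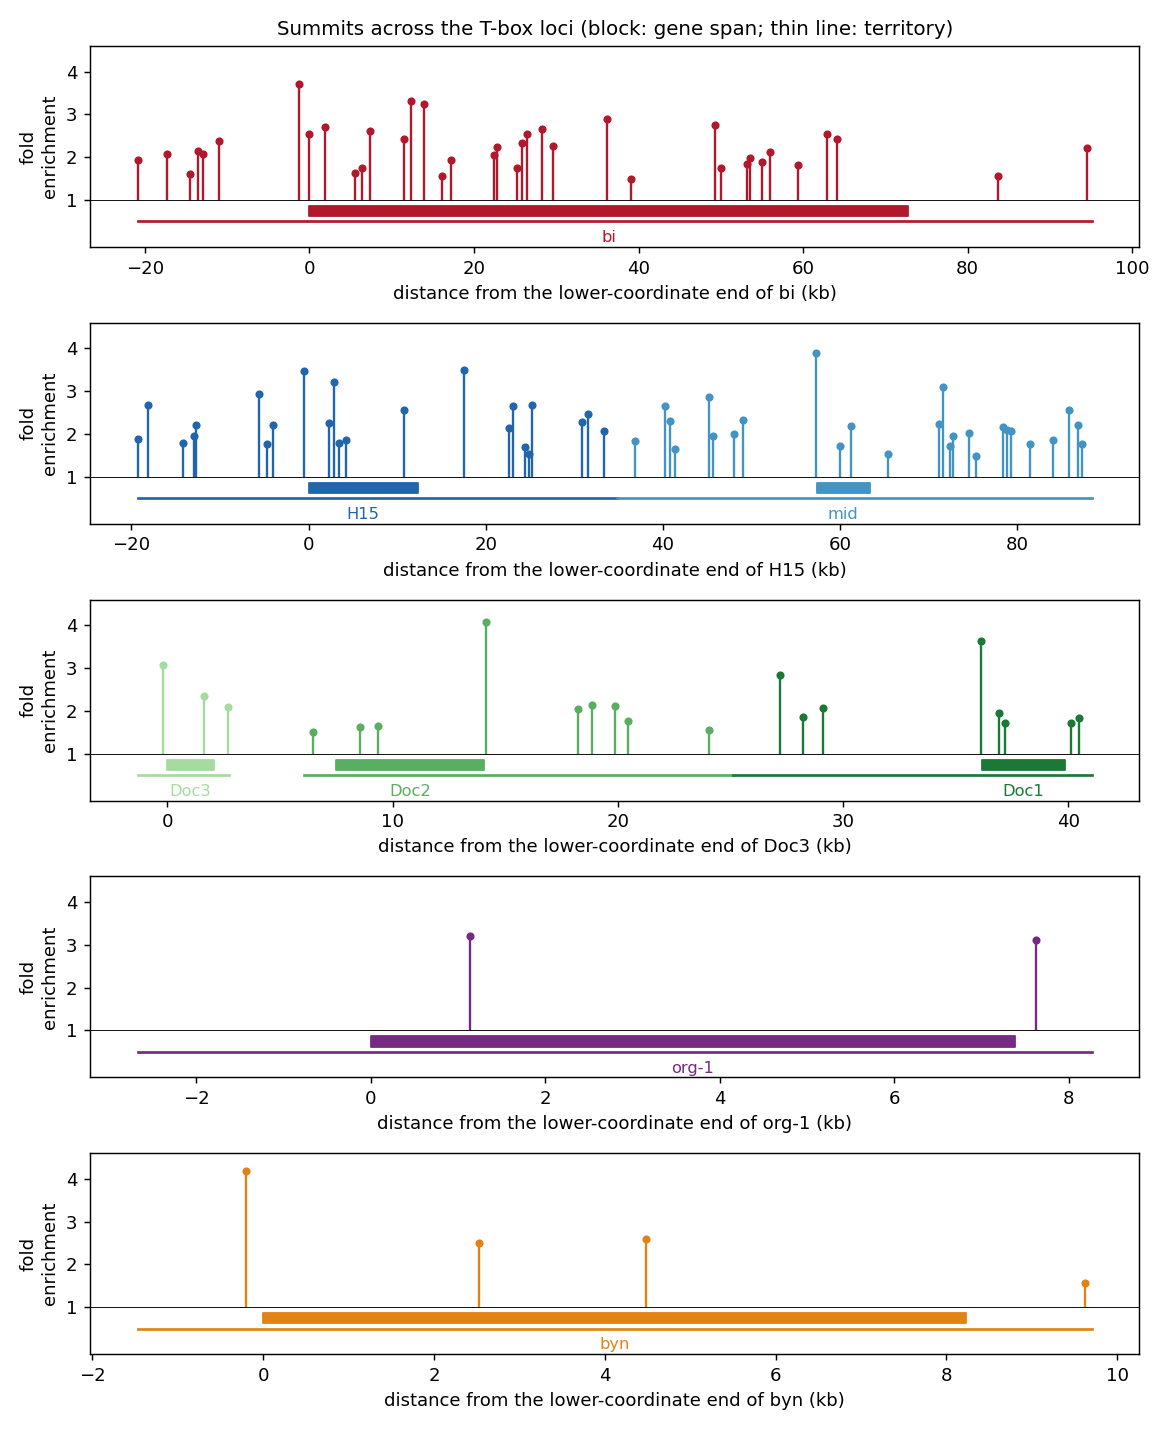
Fold enrichment of every member summit (authors' value, vertical axis from the baseline of 1) by distance in kb from the lower-coordinate end of the first gene of each locus; blocks are gene spans and thin lines territories. Summits run through the bi gene, flank H15 and mid on either side, and at Doc2, Doc1 and byn the highest summit stands at a gene end.

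H15 (chr2L:5404280-5416593) and mid (chr2L:5461639-5467610), both related to vertebrate Tbx20, lie beside each other with 45.0 kb between them. Their territories of 54.1 and 53.6 kb held 23 and 26 summits. Only 5 of the H15 summits and 2 of the mid summits lay inside the gene spans. H15 had 9 summits on each side, and mid had 9 on the lower side, towards H15, and 15 on the higher side. The stretch between the genes held 18 summits, or 3.996 per 10 kb, with a median fold enrichment of 2.29.

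The peak at the lower end of mid (chr2L:5460977-5462093, summit 119 bp away) had 236 reads and a fold enrichment of 3.89 (3.41 to 4.42), 72nd of all peaks in the list. At H15 the peak near the lower end (chr2L:5403448-5404270, 491 bp away) had 223 reads and a fold enrichment of 3.48 (3.04 to 3.96). A peak 5213 bp beyond the other end of H15 (chr2L:5421445-5422448) was as high, at 3.49 (3.03 to 4.001), and another inside the gene, 2870 bp from the lower end (chr2L:5406893-5407346), had 3.21 (2.79 to 3.69). The intervals of these 3 H15 peaks overlap. Outside mid the highest peak lay 8265 bp beyond the higher end (chr2L:5475683-5476341), at 3.09 (2.69 to 3.54). It belonged to a stretch of 6 summits at 7845 to 11968 bp from that end, followed by 8 more at 15012 to 23958 bp with fold enrichments of 1.76 to 2.56. Each of the pair thus had a peak above 3 at its lower end and at least 1 other away from its ends, inside and beyond the gene at H15 and beyond it at mid.

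In the H15 territory 3 summits lay within 500 bp of an end of a non-coding gene. Of these, 2 lay by the lower end of lncRNA:CR31647 (436 and 186 bp away) and 1 by snoRNA:Me28S-A2486 (29 bp away). Their fold enrichments were 2.27, 2.47 and 2.06.

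Doc3 (chr3L:9005196-9007249), Doc2 (chr3L:9012686-9019246) and Doc1 (chr3L:9041375-9045042) lie in this order along the arm, with CG5194, which is not a T-box gene, between Doc3 and Doc2. Their territories and that of CG5194 made up 42.4 kb with 20 summits, none of them assigned to CG5194. The highest peak of the cluster was at the higher end of Doc2 (chr3L:9018703-9019831, 91 bp away), with 238 reads over 57.7 and a fold enrichment of 4.07 (3.57 to 4.62), 29th of the whole list. Doc1 had 237 reads over 64.4 at its lower end (chr3L:9040726-9041692, 72 bp away), a fold enrichment of 3.64 (3.19 to 4.13). Doc3 had the same 238 reads as Doc2 at its lower end (chr3L:9004667-9005556, 196 bp away), but its background of 76.8 reads gave a fold enrichment of 3.07 (2.70 to 3.49). The summit at Doc1 also lay 374 bp from an end of lncRNA:CR46451.

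Doc1 and Doc3 were the only members with summits within 500 bp of the lower and of the higher end, a property of 14.8% of protein-coding genes. The second of these peaks had a fold enrichment of 1.71 at Doc1 (chr3L:9045198-9045415) and 2.35 at Doc3 (chr3L:9006511-9007087). Doc2 had no summit within 500 bp of its lower end, and 3 weak ones at 1.51 to 1.65 from 1.05 kb outside that end to 1.87 kb inside it. The 22.1 kb between Doc2 and Doc1 held 10 summits. After those at the gene ends, the highest was at chr3L:9032178-9032996, 8970 bp from Doc1, at 2.84 (2.45 to 3.29), and the others included 4 near Doc2 between 1.75 and 2.14. Of the 20 summits of the cluster, 7 (35.0%) were among the 17359 peaks of highest −log10 q, beside 29 of 49 (59.2%) for H15 and mid and 50.0% of all peaks. By gene these were 2 of 8 at Doc1, 2 of 9 at Doc2 and all 3 at Doc3.

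The smallest sets belonged to org-1 and byn. The gene org-1 (chrX:8447691-8455069) had 1 peak inside the gene, 1135 bp from its lower end (chrX:8448250-8449152, 3.21, 2.77 to 3.71), and 1 near its higher end (chrX:8454912-8455914, 243 bp away, 3.11, 2.67 to 3.60). Their intervals overlap, and both were broad, at 903 and 1003 bp. The gene byn (chr3L:11927693-11935919) had the highest peak of any member at its lower end (chr3L:11927162-11927795, 202 bp away). It had 242 reads over 57.2 and a fold enrichment of 4.18 (3.67 to 4.73), 14th of the whole list in a tie. Inside byn 2 peaks had 2.51 and 2.59, and the last, 1392 bp beyond the higher end, had 1.56. The whole of byn lies within the span of another protein-coding gene, CG44837, which had 1 of its ends marked by a summit, at 2.75. All 4 byn summits also lay inside the CG44837 span and were counted among the 6 summits of that gene too.

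The gene-end peaks thus ran from 4.18 at byn through 4.07 at Doc2, 3.89 at mid, 3.64 at Doc1, 3.48 at H15, 3.11 at org-1 and 3.07 at Doc3 to 2.54 at bi. Each neighbouring pair in this order has overlapping counting intervals. The interval of bi ends at 2.99, below the lower bounds for byn, Doc2, mid, Doc1 and H15. Ranked by the highest peak at a gene end, byn was 6th of all protein-coding genes, in a tie that includes caup. Doc2 was 14th, mid 37th, Doc1 125th, H15 266th, org-1 1080th, Doc3 1224th and bi 4032nd. The median over all genes with such a peak was 2.47, which lies within the interval of bi. The highest peak of the member was at a gene end for mid, Doc1, Doc2, Doc3 and byn, and at a distal site for bi, H15 and org-1. How often the highest peak is at a gene end over all protein-coding genes was not computed. The intervals of the highest and the gene-end peak overlap at H15 and org-1 and lie apart at bi. The highest was picked from 37 summits at bi, 23 at H15 and 2 at org-1, so these comparisons are not alike.

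**Figure D4:**
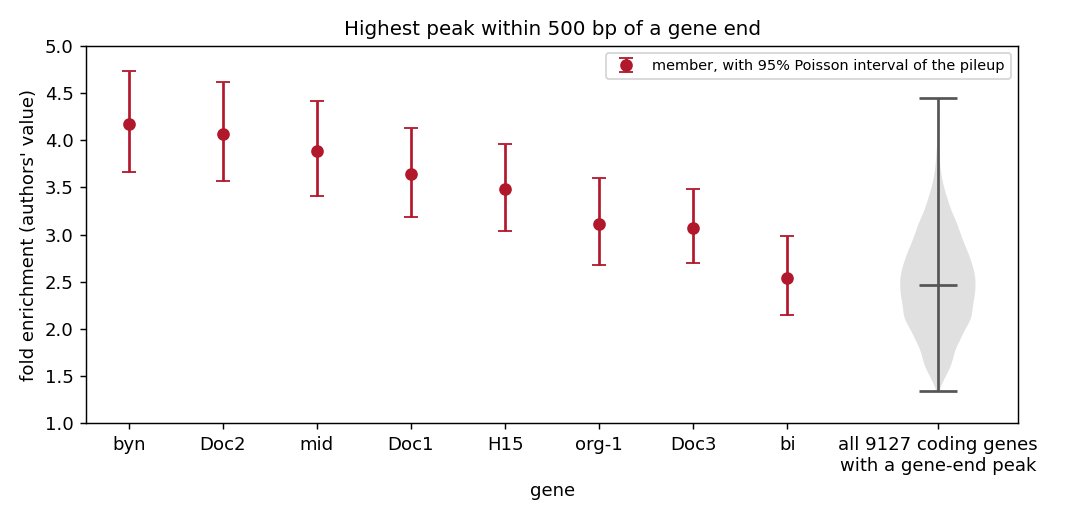
Fold enrichment of the highest peak within 500 bp of a gene end for each member (points, with 95% Poisson intervals of the read pileup) beside all coding genes with such a peak, members included (shape, with its median and range). The members run from 4.18 at byn to 2.54 at bi, and all but bi lie above 3.

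Peaks at the members' own ends were broad, with a median width of 903 bp over 10 peaks. The median was 384 bp for all peaks within 500 bp of an end of any annotated gene, non-coding ones included. The 3 member peaks near ends of non-coding genes only, with a median of 627 bp, are not among the 10. The 99 distal member peaks were closer to the rest of the list, with a median width of 360 bp beside 348 bp for all distal peaks and a median fold enrichment of 2.08 beside 1.92. A fold enrichment of 3 or more was reached by 7 of them (7.07%), beside 3.94% of all distal peaks. The background was at its floor of 57.2 reads at 33.9% of member peaks and at 26.4% of all peaks, which raises the ratio for a given number of reads. The median number of reads at the summit was 146 for member peaks and 149 for all peaks. Neighbouring member summits were within 1000 bp of each other in 39 of 104 cases (37.5%), beside 32.6% in the whole list, and within 500 bp in 13 (12.5%), beside 11.9%. The spacing of member summits at these distances was therefore near that of the list.

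The 11 protein-coding genes that flank members and are not in the family had between 0 and 15 summits. Their median was 2, beside 1 over all protein-coding genes. A gene-end summit was present at 5 of the 11, beside 65.6% of protein-coding genes. Fold enrichments there ran from 2.15 at CG12123 to 3.06 at CG3626. A gene-end summit was absent at nompC, which encodes a mechanosensory channel, and at CG14020, CG5194, CG32713, SdhAL and Rpt4R. The neighbours of H15 and mid among these, nompC and CG14020, nevertheless had 9 and 15 distal summits.

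Some summits lay close to the border of a territory, where the nearest-gene rule decides. The first summit of bi (fold enrichment 1.92) lay 8 bp inside the border with CG3626, and the next peak outside it, 722 bp beyond, had 3.04. The first summit of H15 (1.89) lay 55 bp inside the border with nompC, and the next outside it had 3.61 at 8487 bp. The last summit of Doc3 (2.10) lay 52 bp inside, and the last of byn (1.56) 84 bp inside. At org-1 a peak of 2.30 lay 241 bp outside.

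Genes of the signals that pattern the body wall were described by lists. Dpp, Wingless and the EGF receptor ligands are secreted signals, and bi is a known target of Dpp in the wing. All 8 T-box genes had a gene-end summit and all 8 a distal one, with a median of 7 distal summits, beside 65.6% and 41.9% of protein-coding genes. In the Dpp list 16 of 18 genes had a gene-end summit and 15 had a distal one, with a median of 10.5 distal summits. The proteoglycan gene dally had 34 distal summits and shn, which encodes a transcription factor of the pathway, had 25 with no gene-end summit. The highest gene-end peaks were at salr, a zinc-finger target gene (3.52), and at the receptor gene sax (3.39), and tsg had neither kind. The territory of sax held no summit, so the peak near its end lay outside that territory.

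In the Wingless list 13 of 16 genes had a gene-end summit and 13 a distal one, with a median of 8.5 distal summits. The receptor genes fz and fz2 had 52 and 43, the ligand genes wg and Wnt4 reached 3.97 and 3.68 at a gene end, and arm and Axn had no gene-end summit. In the EGF receptor list 12 of 15 had a gene-end summit and all 15 a distal one, with a median of 10. The ETS factor gene pnt had 28 distal summits and the ligand gene vn 24, while rho, which encodes a protease that releases ligands, was highest at a gene end with 3.17, followed by kek1 with 2.79. The ligand gene Krn and the adaptor gene drk had no gene-end summit.

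Among 9 dorsal factors, 6 had a gene-end summit and 8 a distal one, with a median of 12 distal summits. There hth, which is also in the next list, and mirr had 75 and 29 distal summits and no gene-end summit, and tup and caup were highest at a gene end with 4.45 and 4.18. Among 13 abdominal selector and compartment genes 12 had each kind, and the median of 21 distal summits was the highest of the 5 lists. Ubx had 40 distal summits and a gene-end peak of 3.68, and abd-A had one of 3.72. Distal density in the 5 lists lay between 3.83 and 4.01 per 10 kb, beside 3.48 for the T-box genes and 1.83 for all protein-coding genes. The T-box genes thus had a distal density near that of these lists. Their gene-end peaks had a median fold enrichment of 3.56, beside 3.79 for the dorsal factors with such a peak and 2.22 to 2.65 for the other 4 lists. The hindgut and heart genes, which share byn with the members and tup and pnr with the dorsal factors, had a median of 3.47. The other marker lists had medians of 1.72 to 2.43. No test was made of these differences.

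**Figure D5:**
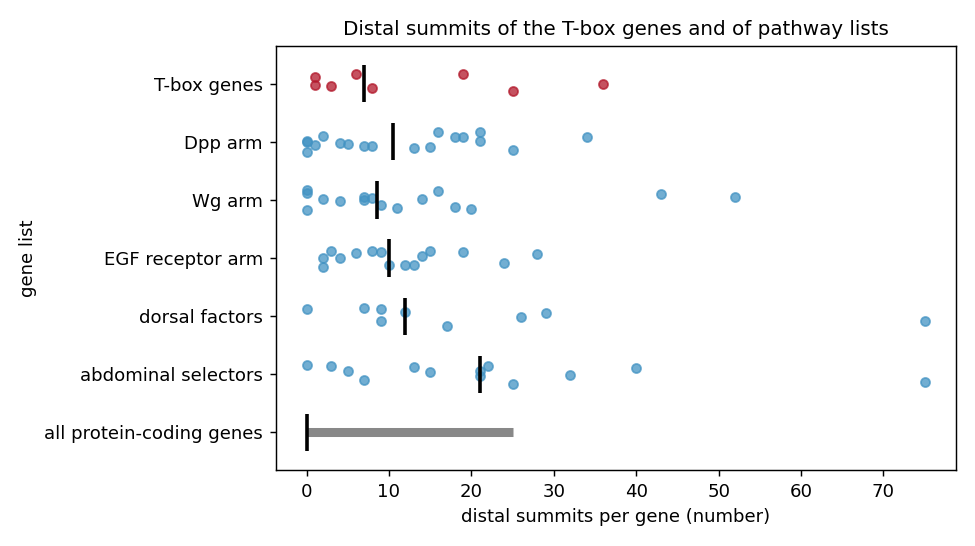
Distal summits per gene for the T-box genes, the 5 pathway lists and all protein-coding genes; points are genes, black bars are medians, and the grey bar runs from 0 to the 99th percentile of all genes, 25. The T-box genes have a median of 7 and range from 1 to 36, beside a median of 0 over all genes.

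By percentile rank on 4 measures, the genes nearest to bi were sick, CG34417 and lov. Likeness was the mean absolute difference in percentile rank over 4 measures (number of distal summits, their density, the best gene-end peak and the best distal peak), computed for 13921 genes in this 1 list. It was 0.813 percentile points for sick, which had 51 distal summits and a gene-end peak of 2.58. It was 0.959 for CG34417, with 15 distal summits and 2.53, and 1.44 for lov, with 19 and 2.56. Territory length was not among the measures. The territories of sick, CG34417 and lov were 162, 49.6 and 54.6 kb long, beside 116 kb and 36 distal summits for bi.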

How the data were processed

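One merged ATAC-seq peak list of 3 replicates of 1 wild-type group was used. Per the labels' protocols, abdominal cuticles were dissected, internal organs removed, and libraries made by an Omni-ATAC procedure with 0.1% IGEPAL. The submitters' processing notes name dm6 as the build, with BWA, SAMtools, Picard and MACS2 as tools. Their versions and settings, and how duplicates and replicates were handled, are not stated in the sources used here. The deposited list gives each peak a fold enrichment, a linear ratio over the caller's local background, with a −log10 p and a −log10 q. The deposited score is a display value and was not used.

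The depth of each replicate is unknown. Whole read pileups (79 to 277, median 149) were recovered by solving the caller's formulas, (pileup + 1) / (background + 1) and a Poisson tail, for all 34718 peaks (tolerance 0.002, largest residual 0.00014). Tested on 4578 simulated summits, the method returned the true pileup for 100%. Intervals are 95% Poisson intervals with the background held fixed.

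Positions are 1-based and were compared with the RefSeq gene table of the same Release 6 assembly, which has spans but no strand. Exons, introns and UTRs were not separated. No sequence was used here, so the planned motif search was not run and no sequence is shown. Python 3.11.15, numpy 2.4.6, scipy 1.17.1 and pandas 2.3.3 were used.

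With 1 merged list no test between samples exists, and values are set beside those of all protein-coding genes or all peaks. The members and lists were chosen with earlier results of these data known. Named genes are the members, their flanking genes, the extremes of each pathway list and the 3 genes most like the member with the most distal summits. Stretches, CG44837 and the non-coding genes were named after their values were seen. The marker name sal matched no single gene and was left out. Alternatives changed the assignment rule, the gene-end window and the peak threshold.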

Additional observations from a re-analysis of the deposited data

How the results depend on the processing

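The number of member summits changed with the assignment rule and with the peak threshold. In place of 112 it was 42 inside the gene spans alone and 74 when all annotated genes, non-coding ones included, competed (10 at H15, 10 at mid and 32 at bi). It was 60 when only the 17359 peaks of highest −log10 q were kept, a cut that keeps 50.0% of all peaks by construction. With a fold enrichment of 2 or more it was 68, where the median over all peaks was 2.01. The shares of all peaks that pass the span and fold enrichment rules were not computed. It stayed within 1.5 times of 112 within 20 kb of an end (104), with summits within 500 bp joined (99) and with any base of a peak counted (112). Among the 17359 peaks the distal density was 1.69 per 10 kb (0.778 over all genes), the median fold enrichment 2.545 (2.40 over all peaks) and the median width 569 bp in place of 383.5 (530 over all peaks); each of these values moves through the selection itself. A gene-end summit was present at 7 of the 8 members within 250 bp, where H15 lost its own (52.2% of all protein-coding genes), at 8 within 1000 bp (75.9%) and at 8 among the 17359 peaks (52.5%). The ratio of member to all-gene distal density ran from 1.76 to 2.17 over the 5 settings run. No paired analysis was possible because there is 1 group and 1 merged list, and for the same reason no replicate could be left out. Depth limits the fold enrichments to the counting intervals given.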
